A study of Mus musculus with 15 samples.

Results

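The regions described here are 1344 places in the genome of MC3T3-E1 cells where ChIP-seq peaks of Sp7, Dlx5 and the mutant form Sp7mut coincided. A ChIP-seq peak is a stretch of DNA that was pulled down more often with a tagged protein than in input DNA. They were chosen from the peak lists themselves: a region needed a peak of Sp7 in both replicates, no peak of the GFP control, and at least 1 bp of overlap with a Dlx5 and with an Sp7mut region built in the same way. Regions that also overlapped an Sp1 region of the line, or an Sp7 region of primary osteoblasts, were left out. This left 1344 of 5018 Sp7 regions of the line, 26.8% (95% Clopper-Pearson interval 25.6 to 28.0, counting error only). They are called retained regions below, since the mutant protein was found there too.

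Sp7, also called Osterix, is a zinc finger transcription factor without which osteoblasts do not form. Sp1, a widely expressed relative, binds GC boxes, short GC-rich sites found at many promoters. Dlx5 is a homeodomain factor of the developing skeleton, and homeodomains bind short AT-rich sites. The title of the series names Sp7 as a Dlx co-factor, so that sites of Sp7 and Dlx5, with and without a change to Sp7, are the comparison these lists were made for.

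MC3T3-E1 is a line of mouse calvarial pre-osteoblasts. It was used at passages 5 to 10 and grown for 1 week in osteogenic medium with BMP2 (10 ng/ml), a bone-inducing growth factor, 10 mM of the phosphate donor beta-glycerophosphate and 50 ug/ml of a phosphate of ascorbic acid. The line carried FLAG-tagged Sp7, Dlx5, Sp1 or Sp7mut (2 libraries each) or GFP (1 library). How the tagged proteins were expressed, at what level, and what the mutation is were not given in the sources used here. Primary osteoblasts came from calvaria of C57BL/6 mice on postnatal day 1, either Sp7-BioFL/BioFL (2 libraries), in which Sp7 itself bears the tag, or wild-type (1 library). Every one of these 12 libraries was pulled down with the FLAG M2 antibody.

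The lists hold positions only, with no score or read count, so the depth behind a peak is unknown. They were of very different length, from 2666 peaks in replicate 1 of primary Sp7 to 39749 in replicate 2 of Dlx5. Replicates differed as well, with 18624 and 6063 peaks for Sp7 of the line and 10549 and 28210 for Sp1. The labels do not say whether replicates were separate cultures, so their spread may be technical. Sp7 and Dlx5 of the line were called against one input library, Sp7mut and Sp1 against another, while for the GFP library no input is named.

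Each step of the choice removed a part of the Sp7 regions. Of the 5018, 4236 (84.4%) met a Dlx5 region, and 3030 met both a Dlx5 and an Sp7mut region. Over all Sp7 regions the share with Sp7mut was 69.6%, that with Sp1 was 30.3% and that with primary Sp7 was 16.6%. Among the 3030, 941 were set aside for an Sp1 region, 668 for a primary Sp7 region and 77 for both. These counts follow from the rule and are not results. Of all 23682 Dlx5 regions 5.71% overlapped a retained region, as did 16.4% of the 8201 Sp7mut regions. Most places where Dlx5 was found thus lay outside the retained regions.

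For comparison, 1007 Sp7 regions met Dlx5 but no Sp7mut, Sp1 or primary Sp7 region, and are called the regions absent in the mutant. A further 814 Sp7 regions with Dlx5 were also Sp7 regions of primary osteoblasts, and 745 of these met an Sp7mut region. These are called the regions of both cell systems.

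Absence from the mutant was partial in the single lists. Of the 1007 regions absent in the mutant, 484 (48.1%) held a peak of Sp7mut replicate 2 and 108 (10.7%) a peak of replicate 1. No peak of either was present at 427 (42.4%), so that "absent" means without a region shared by both replicates. In the retained regions, 1331 of 1344 held peaks of both Sp7mut replicates, and the other 13 touched a shared region through 1 list.

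The lists placed the retained regions differently. The rows of the lists are not in genomic order, and what orders them is not stated, so a row position is given here as a percentage of the list from its start, and read only as a place in the file. In the Sp7 lists, the median retained region stood at 15.1% of replicate 1 and 38.6% of replicate 2. In the Dlx5 lists it stood at 9.85% and 9.77%, and in the Sp7mut lists at 31.4% and 20.6%. In both Dlx5 lists, 70.8% and 73.5% of them fell in the first 20% of rows. For Sp7 these shares were 60.2% in replicate 1 and 26.1% in replicate 2, and for Sp7mut 32.3% and 49.1%. The replicates of Sp7 thus differed widely. A place in a list of 39749 peaks is not the same as one in a list of 6063, so these percentages compare lists only loosely.

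**Figure D1:**
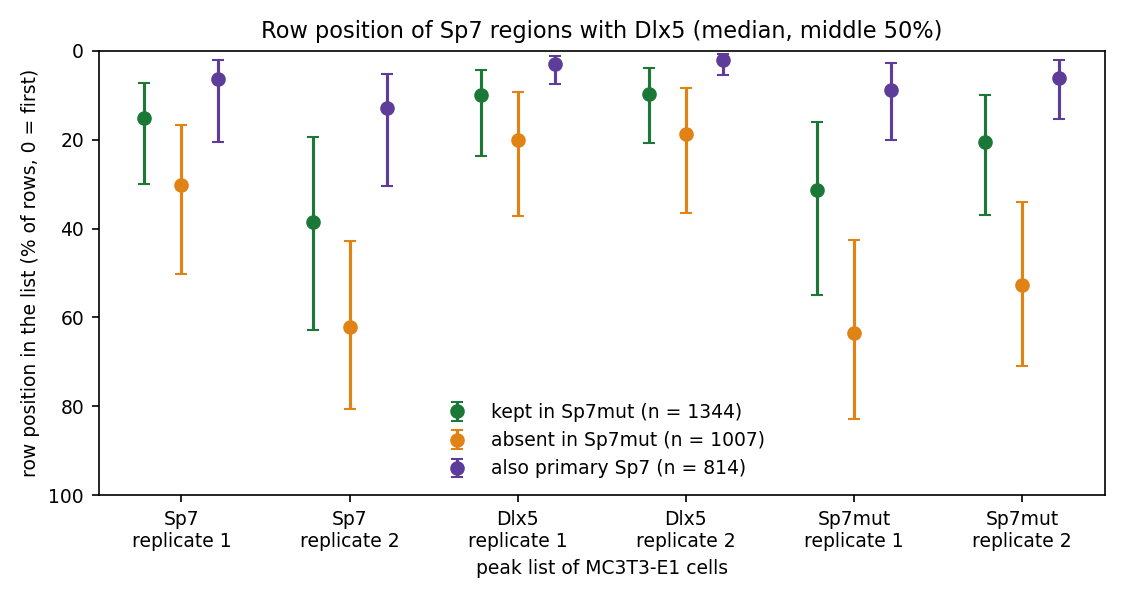
Row position, as a percentage of the rows of each list (0 is the first row), of Sp7 regions with Dlx5 in the 6 lists of Sp7, Dlx5 and Sp7mut. Points are medians and bars span the middle 50% of regions that have a peak in that list; for the regions absent in the mutant only 108 and 484 regions have a peak in the Sp7mut lists. Retained regions stand between the other kinds in all 6 lists, with medians from 9.77% to 38.6%.

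Within every one of these 6 lists the retained regions stood between the other kinds. In Sp7 replicate 1 the median was 6.33% for the regions of both cell systems, 15.1% for the retained and 30.3% for those absent in the mutant. In Dlx5 replicate 2 the medians were 2.08%, 9.77% and 18.8%. Both values come from lists that the rule used, and they describe the kinds without testing them.

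Along the Sp7 regions of the line, ordered by mean row position in both Sp7 lists, retained regions were spread widely. They made up 28.4% of the first 20% of Sp7 regions, 31.5%, 29.5% and 26.3% of the following parts, and 18.2% of the last. The regions of both cell systems went from 45.1% at the start to 5.58% at the end, and those absent in the mutant from 3.29% to 33.7%. Taking only retained and absent regions together, the retained share was 89.6% at the start and 35.1% at the end. The regions absent in the mutant thus stood mostly late among the Sp7 regions in this order, which rests on lists the rule used. In the lists themselves their median was 30.3% of rows in Sp7 replicate 1 and 62.0% in replicate 2. The part that the length of the lists has in this was not tested.

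**Figure D2:**
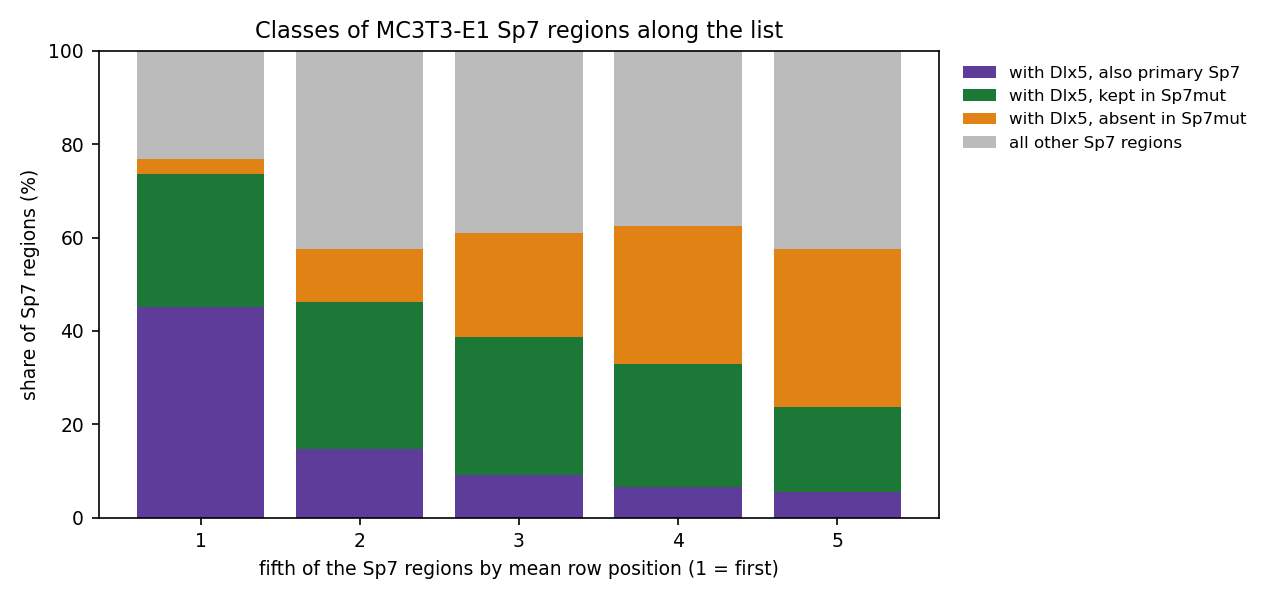
Kinds of Sp7 region in MC3T3-E1 cells, as a percentage of the Sp7 regions (vertical axis) in 5 equal parts of the regions by mean row position in both Sp7 lists (horizontal axis, 1 is the start). The green part, the retained regions, goes from 28.4% at the start to 18.2% at the end, while the regions absent in the mutant go from 3.29% to 33.7%.

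Along the Dlx5 regions the retained ones were gathered at the start. Of the first 20% of Dlx5 regions by row, 18.4% held a retained region, against 5.53% of the next 20% and 0.908% of the last. Along the Sp7mut regions the shares went from 22.1% and 23.0% in the first parts to 6.59% in the last. Most Dlx5 regions with a retained region (64.3%) thus stood in the first 20% of Dlx5 regions. This was not particular to the retained kind, and the rule used these lists. In the first 20% of Dlx5 rows stood 92.7% and 93.3% of the regions of both cell systems in replicates 1 and 2. For the regions absent in the mutant these shares were 50.1% and 52.2%.

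Row order within the retained regions was compared between lists. Across the members, row positions of replicate lists had a Spearman correlation of 0.665 for Sp7, 0.862 for Dlx5 and 0.732 for Sp7mut. Between Sp7 and Dlx5 lists the 4 values lay between 0.396 and 0.623, between Sp7 and Sp7mut lists from 0.417 to 0.516, and between Dlx5 and Sp7mut lists from 0.422 to 0.463. These are correlations across 1326 to 1344 regions, which are not independent replicates, and lists called against the same input share that library. Each value between factors lay below each value between replicates. Of the 263 retained regions that stood first by Sp7, 157 were among the 263 first by Dlx5 and 151 among the 263 first by Sp7mut. All 3 orders shared 104 of them. The 263 are 20% of the 1315 retained regions with a row in all 6 lists, and the Sp7 and Dlx5 lists share an input library. Unrelated orders would share about 20% of their first 263, against 59.7% for Sp7 and Dlx5 and 57.4% for Sp7 and Sp7mut. The same shares over all Sp7 regions are not given here, so these counts do not set the retained regions apart.

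The 10 retained regions with the lowest mean row position over the 6 lists show what the kind looks like. First came chr13:72197572-72197742 (mm9), 171 bp wide, at rows 28 and 39 of the Sp7 lists, 33 and 68 of the Dlx5 lists and 41 and 68 of the Sp7mut lists. The nearest other Dlx5 region was 97.6 kb away. It thus stood near the start of all 6 lists, with no Dlx5 neighbour close by.

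Next was chr15:63232012-63232173, at rows 64 and 92 for Sp7, 53 and 13 for Dlx5 and 29 and 61 for Sp7mut. Another Dlx5 region lay 0.468 kb away, and a primary Sp7 region 10.6 kb away. The third, chr2:92973747-92973920, stood at rows 68 and 45 for Sp7, 214 and 209 for Dlx5 and 142 and 49 for Sp7mut, with another Dlx5 region at 1.15 kb. These last 2 regions, unlike the first, had a Dlx5 neighbour within 10 kb.

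A different balance was seen at chr10:16996514-16996665, the sixth. It stood at row 14 of Sp7 replicate 2 and row 36 of Sp7mut replicate 1, but at rows 254 and 814 of the Dlx5 lists. It was also the one region of the 10 with no peak in either Sp1 list and in either primary Sp7 list. Both forms of Sp7 placed it earlier than Dlx5 did.

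The other 6 were chr1:59500643-59500830, chr6:71106775-71106929, chr10:37855994-37856172, chr6:121007411-121007556, chr15:52970401-52970595 and chr1:81635476-81635644. At chr10:37855994-37856172 the order was the opposite, with rows 46 and 42 of the Dlx5 lists ahead of rows 114 and 64 for Sp7 and 182 and 137 for Sp7mut. The region chr6:121007411-121007556 lay 5.69 kb from a primary Sp7 region that it did not overlap. At chr1:59500643-59500830, chr10:37855994-37856172 and chr1:81635476-81635644 replicate 2 of primary Sp7 had a peak, at rows 2688, 1573 and 3066 of 3212, and replicate 1 had none. Of the 10, 9 had a peak of Sp1 replicate 2, at rows 8645 to 25454 of 28210, and 0 a peak of Sp1 replicate 1.

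That pattern held for the retained set as a whole: the absence of Sp1 rested mainly on replicate 1. Of the 1344 retained regions, 864 (64.3%, 61.7 to 66.9) held a peak of Sp1 replicate 2, whose list has 28210 rows, and 38 (2.83%) a peak of replicate 1, with 10549 rows. Over all Sp7 regions of the line, 68.7% held a peak of Sp1 replicate 2. That number includes the regions shared with Sp1, and among the 2749 Sp7 regions with no shared Sp1 or primary Sp7 region it was 56.4%. A peak in exactly 1 Sp1 list was found at 880 retained regions (65.5%), against 40.8% of all Sp7 regions and 57.5% of those 2749. Only 453 (33.7%) had no Sp1 peak in any list. The Sp1 peaks in question stood late, at a median of 49.9% of the rows of replicate 2. The term "without Sp1" thus means without a peak shared by both replicates.

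In the regions absent in the mutant, 466 of 1007 (46.3%, 43.2 to 49.4) had a peak of Sp1 replicate 2, and 19 (1.89%) one of replicate 1. The difference between the kinds in this single library was not tested. In the first 20% of Sp7 regions the shares were 47.4% of retained and 39.4% of absent regions (13 of 33). In the second they were 64.2% and 46 of 115 regions. In the later parts they were 69.3% and 47.3%, 76.1% and 51.9%, and 65.6% and 43.5%. Replicate 1 of Sp1 had no one order over the parts, with 1.40% and 6.06% in the first and 4.92% and 1.18% in the last. Sp1 and Sp7mut were called against the same input and Sp7 was not, so input and factor cannot be told apart.

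**Figure D3:**
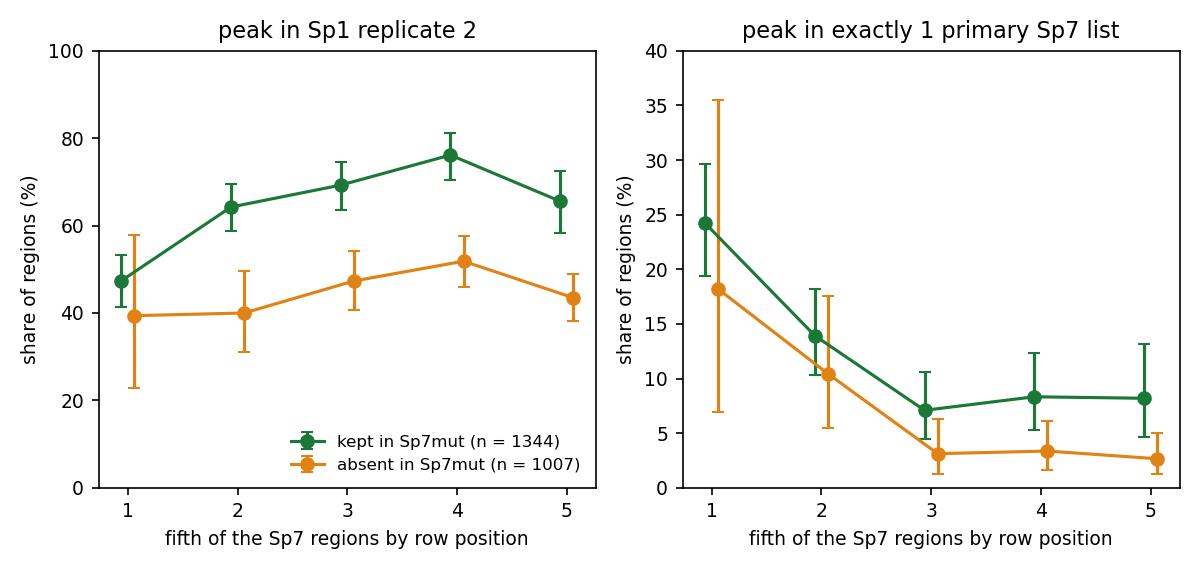
Share of retained regions and of regions absent in the mutant (vertical axes, %) that held a peak of Sp1 replicate 2 (left) or of exactly 1 of the 2 primary Sp7 lists (right), in 5 equal parts of the Sp7 regions by row position (horizontal axes). Points are shares and bars their 95% Clopper-Pearson intervals, for counting error; the first part holds 285 retained and 33 absent regions. Retained regions lie above in all 5 parts of both panels, by the most in the Sp1 panel at 76.1% against 51.9%.

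Peaks of primary Sp7, mostly in a single list, were present at some retained regions, since the rule excluded only shared primary regions. A peak in exactly 1 of the 2 primary lists was present at 171 retained regions (12.7%), against 6.97% of all Sp7 regions of the line, 8.66% of the 2749 and 44 of 1007 (4.37%, 3.19 to 5.82) absent in the mutant. By part of the Sp7 lists, the shares of retained and absent regions went from 24.2% and 18.2% in the first to 8.20% and 2.66% in the last, and the difference was not tested. The 95% intervals of both kinds overlapped in all 5 parts, while those for Sp1 replicate 2 overlapped in the first part only. These intervals hold counting error only, and whether they overlap is no test of a difference. Replicate 2, the longer list, had a peak at 116 retained regions and replicate 1 at 57, and 1 region had separate peaks of both. These peaks stood late in the primary lists, at a median of 75.2% of rows in replicate 1 and 66.0% in replicate 2.

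Retained regions with a primary peak stood earlier in the lists of the line. Their median was 9.24% in Sp7 replicate 1, against 15.9% for the 1172 with no primary peak. In Dlx5 replicate 2 it was 4.26% against 10.9%, and in the Sp7mut lists 16.2% and 10.7% against 34.1% and 22.1%. All 6 lists had the same order. For Sp1 the order was less uniform. Regions with a peak of Sp1 replicate 2 stood later than those without in both Sp7 and both Dlx5 lists, at 16.3% and 13.1% in Sp7 replicate 1, for example. In Sp7mut replicate 2 they stood earlier, at 18.6% and 23.1%, and in replicate 1 later, at 32.6% and 29.4%. The replicates of Sp7mut thus disagreed on the order.

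Only 379 retained regions (28.2%) had no peak of Sp1 or primary Sp7 in any single list. The wild-type FLAG control of primary cells, which the rule used only to clean the primary Sp7 regions, had a peak at 1 of the 1344 (0.0744%), against 0.259% of all Sp7 regions.

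Midpoints of the peaks lay close together in retained regions, which were chosen for overlapping peaks, so the distances are a description. Midpoints of an Sp7 and a Dlx5 peak lay 23.5 to 27 bp apart at the median, depending on which of 4 list pairs was taken. This distance was 15 to 16.5 bp in the regions of both cell systems and 31.5 to 35 bp in those absent in the mutant. For Sp7 and Sp7mut it was 22 to 25 bp, and for Dlx5 and Sp7mut 21.5 to 24 bp. Replicates of the same protein lay 25.5 bp (Sp7), 18.5 bp (Dlx5) and 20.5 bp (Sp7mut) apart. The distance of Sp7 to its partners therefore lay within or close to that between its own replicates. Between 70.5% and 76.3% of midpoints of different proteins were within 50 bp of each other.

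Merged Sp7 regions of the retained kind were 202 bp wide at the median, with the middle 50% from 166 to 275 bp. The median was 179 bp in the regions of both cell systems and 219 bp in those absent in the mutant. Most members held a single peak of each list: at most 27 held more than 1, in Dlx5 replicate 1. The widest, chr2:65630408-65631476, spanned 1069 bp and stood at 22.9% and 61.2% of rows in the Sp7 lists and at 7.40% and 4.11% in the Dlx5 lists.

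Few members overlapped their Dlx5 or Sp7mut region by only a few bp. The number of members did depend on the overlap rule: with an overlap of at least 50% of both regions at each step, 783 were retained. Retained Sp7 regions overlapped their Dlx5 region over a median of 169 bp and their Sp7mut region over 163 bp, and in each case 4 regions overlapped by under 20 bp. Just inside were chr17:36408407-36408579, with 1 bp of overlap with Dlx5, and chr1:129244965-129245241, with 2 bp of overlap with Sp7mut. Just outside was chr11:68937889-68938324, which lay 32 bp from an Sp7mut region. The retained region chr2:32251326-32251543 lay without a gap beside an Sp1 region, and chr3:38774282-38774509 beside a primary Sp7 region. An Sp1 region lay within 200 bp of 32 retained regions. A primary Sp7 region lay within 200 bp of 5, and 18 of the regions absent in the mutant had an Sp7mut region as close.

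Regions near a retained region that did not overlap it were compared between kinds. The rule used only overlap with the region itself, but the neighbours come from the same lists. An Sp1 or primary Sp7 region that just missed a retained region counts as its neighbour, as for the 32 and 5 within 200 bp. Neighbours of these kinds are therefore not independent of the rule. Of the 1344, 709 (52.8%, 50.0 to 55.5) had another Dlx5 region within 10 kb, against 51.7% of all Sp7 regions. Another Sp7 region was as close for 249 (18.5%, background 20.2%), an Sp1 region for 246 (18.3%, background 21.9%) and a primary Sp7 region for 96 (7.14%, background 7.45%). The share for Dlx5 lay just above its background and the others below theirs, each by a few points at most. That background also holds Sp7 regions that overlap an Sp1 or primary Sp7 region, which the rule removed from the retained ones. Within 50 kb, 88.7% had another Dlx5 region, and the median retained region had 3 of them.

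**Figure D4:**
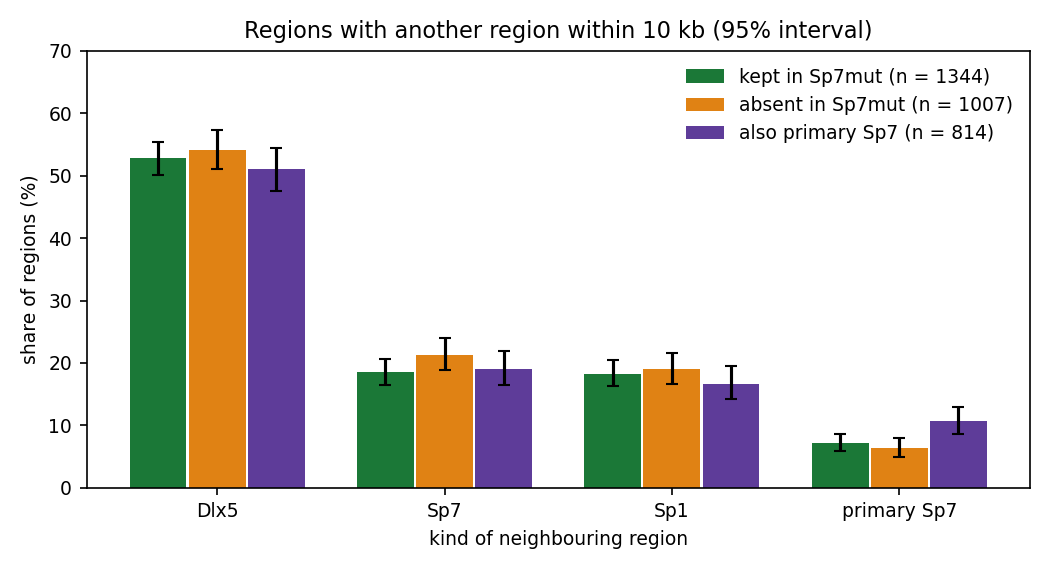
Share of regions (vertical axis, %) with another, non-overlapping region of Dlx5, Sp7 or Sp1 of the line or of primary Sp7 within 10 kb (horizontal axis), for 3 kinds of Sp7 region with Dlx5. Bars are shares and lines 95% Clopper-Pearson intervals. The kinds lie close together for Dlx5, at 52.8% of retained, 54.1% of absent and 51.0% of both-system regions, and the difference seen for primary Sp7, 7.14% against 10.7%, did not pass the test over chromosomes.

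None of the 8 differences between kinds passed an exact two-sided sign test over the 19 autosomes and X, with Benjamini-Hochberg adjustment over the 8. For a Dlx5 neighbour, retained regions stood at 52.8% and regions absent in the mutant at 54.1% (a difference of -1.37 points, lower on 12 of 20 chromosomes, exact sign test p = 0.503, adjusted 0.806). For an Sp7 neighbour the difference from absent regions was -2.82 points, lower on 12 and tied on 1 of 20 (exact sign test without the tie, p = 0.359, adjusted 0.806). The smallest p was for an Sp7 neighbour against the regions of both cell systems, a difference of -0.515 points. It was lower on 14 and tied on 1 of 20 (exact sign test without the tie, p = 0.0636, adjusted 0.509). Chromosomes are not replicate libraries, so the test speaks of these lists. It counts each chromosome once, by sign only, whatever its number of regions. Its p therefore does not measure the pooled difference in points.

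Single lists were also compared. Within 10 kb of 60.6% and 68.3% of retained regions lay a further peak of Dlx5 replicates 1 and 2, a mean of 64.4 ± 5.47% (SD, n = 2), against 65.0 ± 6.53% for absent regions. Both kinds were measured on the same lists, and within them the difference was 0.188 points in replicate 1 and -1.31 points in replicate 2. A primary Sp7 peak was as close to 9.04 ± 0.684% of retained regions and 15.1 ± 2.08% of the regions of both cell systems (SD, n = 2 each). Both lists showed this order, but the difference over shared regions of -3.55 points was lower on 13 and tied on 1 of 20 chromosomes only (exact sign test without the tie, p = 0.167, adjusted 0.668). Within the Sp1 lists, the difference from absent regions was 0.674 points in replicate 1 and 5.14 in replicate 2. From the regions of both cell systems it was 2.77 and 5.14 points. Within the Sp7 lists these differences were 0.204 and -2.23 points, and 6.41 and 0.703 points. Differences within single lists were not tested.

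This outcome depended on the lists used. With replicate 2 of every group left out, a step that drops the need for a second peak, 2715 regions were retained and 6036 absent in the mutant. Retained regions then had a neighbour more often than absent ones, by 5.78 points for Dlx5, 5.40 for Sp7 (both exact sign test, adjusted p = 0.00515), 2.27 for primary Sp7 (adjusted p = 0.00515) and 4.49 for Sp1 (adjusted p = 0.0158). Against the regions of both cell systems the differences were then 6.93 points for Sp7, 7.47 for Sp1 and -4.64 for primary Sp7 (exact sign test, adjusted p = 0.00515, 0.0158 and 0.0220). With replicate 1 left out instead, none of the 8 passed the test. Among the 379 retained regions with no Sp1 or primary Sp7 peak in any single list, a Dlx5 and an Sp7 neighbour were rarer than in the regions of both cell systems. The differences were -7.97 points (exact sign test, adjusted p = 0.0473) and -6.11 points (adjusted p = 0.0354). That subset was added after the data were seen, and the regions of both cell systems were not filtered in the same way. All of those met a primary Sp7 region by definition, and 58.6% held a peak of Sp1 replicate 2. The filter and the kind of region therefore cannot be told apart in these differences. Against absent regions, filtered alike, the differences were -6.99 points for Dlx5 and -7.95 points for Sp7. Neither passed the test (exact sign test, adjusted p = 0.102 and 0.128).

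Another retained region lay within 10 kb of 81 (6.03%) retained regions, in 39 pairs and 1 run of 3. That run, on chromosome 10 from 95697795 to 95701148, held 3 Sp7, 3 Dlx5 and 3 Sp7mut regions in 3354 bp and no Sp1 or primary Sp7 region. Its members were chr10:95697795-95697977, chr10:95699751-95699954 and chr10:95701018-95701148. The first stood earliest, at row 1468 of Sp7 replicate 1, against rows 3657 and 3658 for the others. Pairs named by position were chr1:45729959-45730237 with chr1:45732637-45733037, and chr1:75087086-75087303 with chr1:75091338-75091477. Of the 289 Sp7 regions found within 10 kb of a retained region, 81 were retained (28.0%), 64 absent in the mutant and 47 of both cell systems. Retained regions made up 26.8% of all Sp7 regions, so their share among these neighbours was near the background.

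Members were found on all 19 autosomes and X, and unevenly. Chromosome 6 held the most, 155 (11.5%), and 7.89% of Dlx5 regions but 5.67% of primary Sp7 regions. Chromosome 3 went the other way, with 33 members (2.46%) beside 5.03% of Dlx5 and 6.87% of primary Sp7 regions. All Sp7 regions of the line shared this order, at 10.2% on chromosome 6 and 3.57% on chromosome 3, and no difference between kinds was tested here. Among the Sp7 regions of a chromosome, the retained share lay between 18.4% on chromosome 3 and 38.1% on X, where it rests on 8 of 21 regions.

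**Figure D5:**
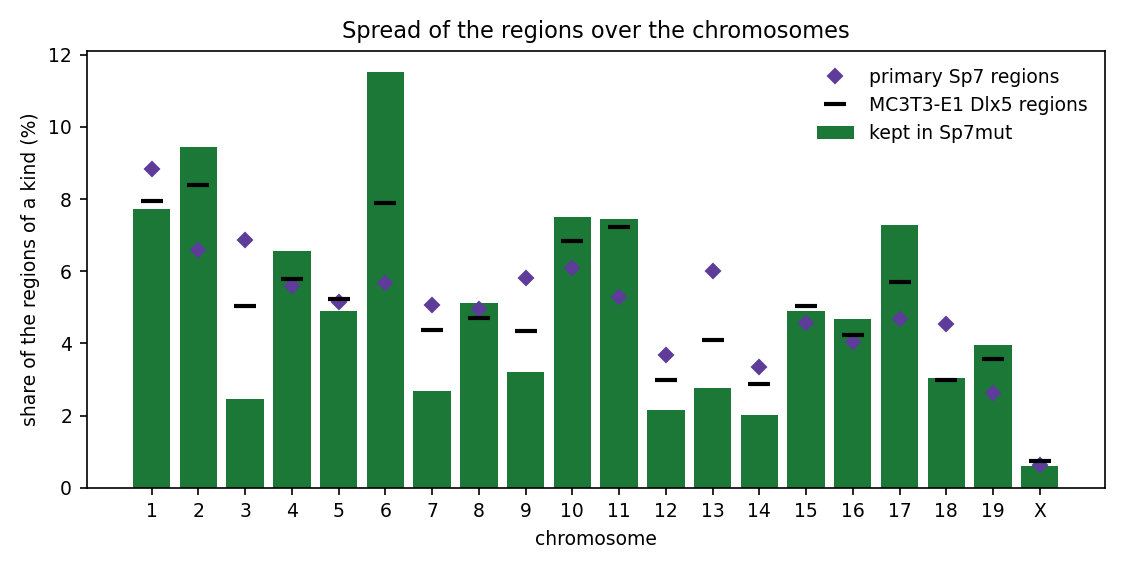
Share of the regions of a kind (vertical axis, %) on each chromosome (horizontal axis): bars for the retained regions, diamonds for Sp7 regions of primary osteoblasts and dashes for Dlx5 regions of the line. Chromosome 6 holds 11.5% of retained and 5.67% of primary Sp7 regions, and chromosome 3 holds 2.46% and 6.87%.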

How the data were processed

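Peaks were called per library by the authors; each of the 12 deposited lists has 3 columns, chromosome, start and end (other values: positions in bp, with no score or count). The submitters' processing notes name the build mm9. Which aligner and peak caller were used, and at what threshold, is not given in the sources used here. For 3 input samples no list was used. Positions were read as BED intervals and printed 1-based. Peaks of both replicates were merged where they shared at least 1 bp, and merged regions with a peak of each were kept unless they overlapped the FLAG control of their cell system.

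Members, kinds, lists and tests were chosen with earlier results of these data known. Regions were named by a rule: the 10 lowest mean row positions over 6 lists, the widest, the longest runs, and the edges of the overlap rule. Neighbours were tested with an exact sign test over chromosomes, with tied chromosomes left out. With 2 lists per group no test over libraries was made, and chromosomes do not stand in for them. The overlap code was tested on made-up lists. Motifs, promoters and nearby genes were planned but not analysed here, since they need sequence and annotation of mm9. Alternatives were 50% reciprocal overlap, each replicate left out, control peaks kept, the earlier or wider 50% of each list, other distances and autosomes alone. Scripts ran in Python 3.11.15, with scipy 1.17.1 for tests and intervals, pandas 2.3.3 and numpy 2.4.6 for tables, and matplotlib 3.10.9 for plots.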

Additional observations from a re-analysis of the deposited data

How the results depend on the processing

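No paired analysis was possible because a region is a merge of both replicate lists and no test was made over libraries; the sign test pairs kinds of region within a chromosome, not libraries. In all settings the differences below are retained minus other regions, in points, by the exact sign test over chromosomes. Of 88 alternative differences 24 changed sign, and 9 of all 96 had an adjusted p under 0.05 (range 0.00515 to 1). The causes of these changes were not tested. Counting touching peaks as overlapping, and autosomes alone, changed no call. Keeping control peaks gave a median Dlx5 row position of 9.88% and wild-type control peaks at 0.296% of retained regions.

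With an overlap of at least 50% of both regions, 783 regions were retained (22.2% of Sp7 regions). Another region within 10 kb was found for 39.3% (Dlx5), 11.5% (Sp7) and 9.96% (Sp1). Differences from absent regions were 1.13 (Dlx5), 0.206 (Sp7) and -5.52 (Sp1), and from regions of both cell systems -1.06 (Dlx5), 0.543 (Sp7) and -1.71 (Sp1). A peak in 1 Sp1 list was at 49.7% and in 1 primary list at 16.1%, and median rows were 16.7% (Sp7), 5.98% (Dlx5) and 17.3% (Sp7mut).

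In the earlier 50% of rows, 870 regions were retained (33.7%) and 483 absent in the mutant. Neighbour shares were 37.4% (Dlx5), 9.77% (Sp7), 4.48% (primary Sp7) and 7.82% (Sp1). Differences were 3.61 (Dlx5) and -0.0721 (primary Sp7) from absent regions and -2.12 (Sp1) from both-system regions. A peak in 1 Sp1 list was at 37.7%, and median rows were 13.2% (Sp7), 4.80% (Dlx5) and 12.9% (Sp7mut).

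In the wider 50% of peaks, 72 were retained (5.13%) and 241 absent. Neighbour shares were 19.4% (Dlx5), 6.94% (Sp7), 1.39% (primary Sp7) and 5.56% (Sp1). Differences were -1.93 (primary Sp7, absent regions), -9.97 (Dlx5) and -0.327 (Sp1, both against both-system regions). A peak in 1 Sp1 list was at 56.9%, in 1 primary list at 6.94% and of the wild-type control at 0%, and the median Dlx5 row was 13.7%.

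Without any single Sp1 or primary Sp7 peak, chosen after seeing the data, 379 were retained (7.55%) and 498 absent. Neighbour shares were 43.0% (Dlx5), 12.9% (Sp7) and 5.01% (primary Sp7). Differences were -7.97 (Dlx5) and -6.11 (Sp7) from both-system regions, which were not filtered in this way. From absent regions, filtered alike, they were -6.99 (Dlx5), -7.95 (Sp7), -2.22 (primary Sp7) and 4.74 (Sp1). Wild-type control peaks were at 0%, and the median Dlx5 row was 7.83%.

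Within 5 kb the shares were 36.8% (Dlx5), 10.4% (Sp7), 3.79% (primary Sp7) and 11.8% (Sp1), and within 50 kb 88.7%, 49.1%, 22.2% and 47.6%. At 50 kb the differences were 0.508 (Dlx5) and 0.846 (Sp1) from absent regions and 3.41 (Sp7) from both-system regions.

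With a replicate of every group left out, 837 to 2715 regions were retained (14.1% to 14.9%) and 594 to 6036 absent. Neighbour shares were 60 to 66.7% (Dlx5), 21.98 to 46.2% (Sp7) and 26.6 to 49.5% (Sp1). Differences from absent regions were -0.168 to 5.78 (Dlx5), -6.64 to 5.40 (Sp7), -1.64 to 2.27 (primary Sp7) and 3.84 to 4.49 (Sp1). From both-system regions they were -1.54 to 1.39 (Dlx5), -1.07 to 6.93 (Sp7), -7.16 to -4.64 (primary Sp7) and 1.69 to 7.47 (Sp1). Median rows were 28.8 to 44.5% (Sp7), 11.03 to 20.8% (Dlx5) and 37.96 to 49.2% (Sp7mut). Shares in exactly 1 list have no value there, since 1 list then defines a group. Motif, promoter and gene alternatives were not run. Depth behind a peak is unknown, so a missing peak in a short list does not show that the protein was absent.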
